A study of Mus musculus with 18 samples.

Results

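Organoids made from induced fetal-type intestinal progenitors were compared with induced hepatocyte-like cells, both products of a study that made intestinal progenitor cells from mouse fibroblasts. The comparison holds 6 of the study's 18 one-colour Agilent arrays, chosen by their titles and not by any measured value. The organoid side is the 3 arrays titled iFIPC-derived SOs and BOs, called iFIPC organoids here, in which spherical organoids (SOs) and budding organoids (BOs) were pooled. The other side is the 3 arrays titled iHep (4α1)-MEF, iHep (4α2)-MEF and iHep (4α3)-MEF, called iHep cells 1 to 3 here, which the labels describe as hepatocyte-like cells obtained from mouse embryonic fibroblasts (MEFs). The labels do not explain the codes 4α1, 4α2 and 4α3, so the 3 iHep arrays may stand for 3 different ways of making the cells rather than 3 cultures of 1 kind. All 6 samples carry the strain label C57BL/6, and no age, dose or culture time is given. The iHep arrays are marked as a re-analysis of earlier arrays, and no label says that arrays of a group came from separate cultures, so p-values measure only the spread between these samples. The other 12 arrays hold MEFs, organoids from induced intestinal stem cells (iISC), organoids from adult crypts and organoids from fetal intestine (FI), 3 of each. They serve below as background levels without tests, and MEF arrays 2 and 3, whose log2 differences had an SD of only 0.21 over 27189 probes, may be 1 RNA.

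Liver and intestine both arise from the endoderm and share a set of transcription factors, among them Hnf4a and the Foxa proteins. Hepatocytes make the proteins of blood plasma, clotting and the acute-phase response, and they convert amino acids, sugars, cholesterol and bile acids. The intestinal epithelium renews itself from Wnt-dependent stem cells and forms absorptive enterocytes with a brush border, mucus-filled goblet cells, antimicrobial Paneth cells, hormone-secreting enteroendocrine cells and chemosensory tuft cells. Fibroblasts, from which the iHep cells were made, produce collagen and other matrix.

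The measured value is the processed spot signal of the scanner software. A level below is its log2 after subtracting the array's own 75th percentile over gene probes, so that 0 is a signal at that percentile and each step of 1 is 2-fold. Each gene is read by its brightest probe, and levels of different genes are not compared. A gene entered the limma test if all 3 arrays of a group (either one) had its probe well above background, and it was called if its Benjamini-Hochberg adjusted p was below 0.05 and its log2 difference at least 1 in size. A gene that passed through 1 group alone was dim in the other, so a call toward the dim group was hardly possible. Counts of lists with many such genes partly follow from this filter. The 75th percentile signal lay between 714.1 and 848.5 on the iHep arrays and between 1061.8 and 1161.8 on the iFIPC arrays, and from 60.57% to 64.98% of gene probes were well above background on the 6 arrays. The iHep arrays were scanned on another scanner model and read with an older software version than the iFIPC arrays, per the file headers, so scanner and cell type cannot be told apart here.

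Of 14383 genes tested, 4603 were called (32.0%), 2319 of them higher in iFIPC organoids (16.1%) and 2284 lower (15.9%). At least 8-fold differences were seen in 822 higher and 845 lower genes, and in 397 higher and 324 lower genes the dimmer group was well above background on no array. The arrays of the 2 groups did not overlap for 9257 genes (64.4%). The near-even split rests on the scaling. With arrays set to their medians, 64% of called genes were higher and the median of all genes moved from 0.05 to 0.34. With 7 spike-in probes as the standard it moved to 1.00, and 85% of 8181 called genes were higher. Changes are therefore given relative to the 75th percentile, and a list whose majority direction turned under spike-in scaling is named as such.

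**Figure D1:**
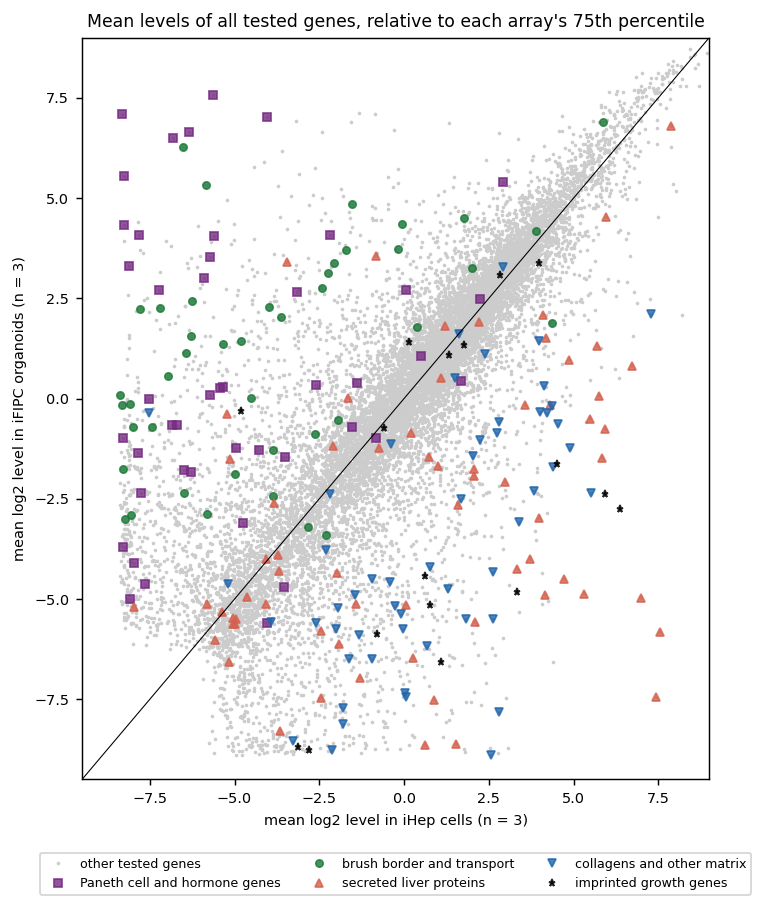
Mean level of every tested gene in iHep cells (x axis) against its mean level in iFIPC organoids (y axis), both as log2 relative to the array's 75th percentile, n = 3 arrays a group. Coloured points mark 5 classes of gene. Paneth and hormone genes lie along the upper left edge, plasma proteins and matrix genes toward the lower right, and most other genes near the diagonal.

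Within a group the arrays resembled each other far more than across groups. Pearson's r over the probes of the tested genes averaged 0.973 among iFIPC arrays, 0.963 among iHep arrays and 0.772 between the groups. For orientation, iFIPC organoids stood at 0.941 with iISC organoids, 0.934 with FI organoids and 0.652 with MEFs, whereas iHep cells stood at 0.839 with MEFs. The MEF and iHep arrays shared a scanner model and software version, and all organoid arrays shared the other. Likeness of cells and likeness of scanning therefore cannot be told apart in these values. The iHep arrays were the less uniform set. Among genes above background on at least 1 array, 503 spanned 3 or more log2 units over the iHep arrays and 364 over the iFIPC arrays. Array iHep 3 was lower than both other iHep arrays by at least 3 for 76 genes, and array iFIPC 3 was higher than both other iFIPC arrays by that much for 63 genes. Array iFIPC 2 was on another slide than arrays iFIPC 1 and iFIPC 3, so for it slide and sample cannot be told apart.

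The cell type labels were checked against marker lists. All 9 intestinal epithelium markers were above background on all 3 iFIPC arrays, with a median level per array of 4.14 to 5.47, against 6 of 9 and -2.51 to -1.54 in iHep cells. Of 11 hepatocyte markers measured, 10 were above background on all iHep arrays, where their linear levels summed to between 284 and 1290, and 7 on all iFIPC arrays, where they summed to between 5.11 and 14.8. Cyp7a1, the rate-limiting enzyme of bile acid synthesis, was above background on no array of either group, and the hepatocyte surface receptor Asgr1 read -3.17, -3.52 and -3.27 in iFIPC organoids and -3.004, -2.992 and -3.125 in iHep cells. Transthyretin (Ttr), a plasma carrier protein, read 0.22, -1.56 and -2.22 in the organoids and -1.09, -1.16 and -4.05 in iHep cells and was not called. The tyrosine-degrading enzyme Tat was lower in the organoids by -1.98 (SE 0.60), a call that when single arrays were left out held without iHep 2 alone. The Tat call was also lost under quantile normalization (-1.81), median scaling (-1.69), spike-in scaling (-1.03) and the authors' deposited values (-1.84). G6pc, the last step of glucose release, was higher by 3.08 (SE 0.83), a call lost without iFIPC 3 or any iHep array (3.05 to 3.31). It was also lost with normexp background correction (1.78). The hepatocyte markers thus did not all stand higher in iHep cells. All 8 fibroblast markers were above background on every iHep array, with summed levels of 50.7 to 155, against 834 to 892 in MEFs and 0.529 to 4.01 in iFIPC organoids. Of 4 endothelial markers Pecam1, Cdh5 and Kdr were above background in neither group, and Tek was so on all 3 iFIPC arrays and no iHep array, at -5.51, -5.60 and -5.55 against -6.17, -5.89 and -6.14. Ptprc, the pan-leukocyte surface protein, was above background on 2 iFIPC arrays and no iHep array, and the 5 blood markers summed to 0.27 to 0.994 and 0.218 to 0.302.

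**Figure D2:**
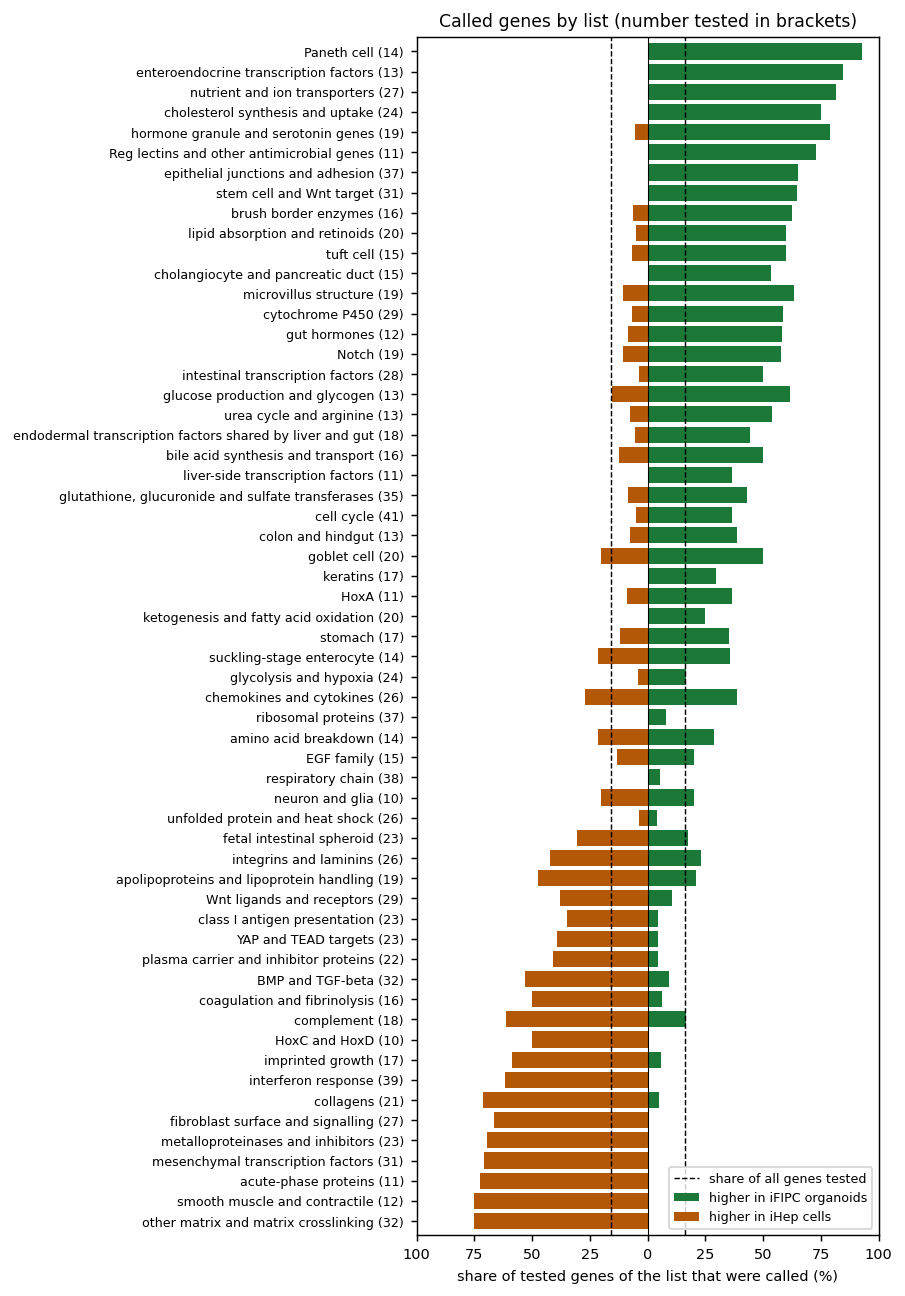
Share of each list's tested genes that was called higher (to the right) or lower (to the left) in iFIPC organoids than in iHep cells, for lists with at least 10 genes tested. Dashed lines give the share over all tested genes, 16.1% and 15.9%. Paneth, hormone and transporter lists reach far past the line on the right, and matrix, mesenchymal and acute-phase lists on the left.

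Paneth cell genes showed the widest gap. Paneth cells sit at the crypt base and secrete antimicrobial peptides, chiefly the alpha-defensins of the Defa family. Of 14 genes tested, 13 were higher in iFIPC organoids and none lower, with a median difference of 11.24 log2 units. All 14 were above background on every iFIPC array, but only 3 on every iHep array and 7 on none. Most thus entered the test through the organoids alone and could hardly be called lower. The median rests in part on iHep readings not above background. Defa23 read 7.151, 7.002 and 7.136 on iFIPC arrays 1 to 3 and -8.13, -8.38 and -8.43 on the iHep arrays, where it was not well above background. Its signal was at least 9075-fold higher in the organoids, the bright group's mean set against the mean over the other group's arrays of the lowest signal still called well above background, or of the probe's own signal where that is higher (limma adjusted p = 1.3e-06). Every "at least" fold below is built in this way. Defa21 was likewise at least 3096-fold higher and Defa22 at least 1322-fold higher. The defensin genes are near copies of one another, so a probe may read several of them and the single members are uncertain.

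The promoters of these genes are shown because the defensins moved as a block. Promoters here are the 250 bases before the start of transcription, from RefSeq on GRCm38.p6, and 11 short motifs were searched on both strands. The letters ATCAAAG, a form of the site bound by the Wnt effector TCF, were found in 4 of the 12 Paneth cell promoters with a sequence (33.3%), namely Defa20 to Defa23, against 3.21% of 32851 promoters. The letters were also in 3 of 10 promoters of Reg lectins and other antimicrobial genes (30%). Among stem cell and Wnt target genes they were in only 1 of 22 promoters (4.55%). A match is a description of the letters and shows no binding. Capitals mark the matches in Defa23 (chr8:21054790-21055039, plus strand) and Defa21 (chr8:21025295-21025544, plus strand):
Defa23: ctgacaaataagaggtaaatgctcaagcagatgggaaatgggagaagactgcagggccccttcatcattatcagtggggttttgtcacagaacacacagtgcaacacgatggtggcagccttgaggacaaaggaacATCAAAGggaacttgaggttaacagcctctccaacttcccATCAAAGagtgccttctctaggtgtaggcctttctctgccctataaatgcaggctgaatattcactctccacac
Defa21: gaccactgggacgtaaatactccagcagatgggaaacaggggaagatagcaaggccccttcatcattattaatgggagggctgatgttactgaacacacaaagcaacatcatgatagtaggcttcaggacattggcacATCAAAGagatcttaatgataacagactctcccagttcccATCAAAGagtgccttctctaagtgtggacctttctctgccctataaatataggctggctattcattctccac
The promoters of Defa21 and Defa22 were 100% identical and that of Defa20 was 98% identical to both, so their matches are not independent. The Defa23 promoter was not aligned with them and is not taken as independent either.

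Other Paneth products behaved alike. The lectin gene Itln1 read 6.56, 6.22 and 6.72 in iFIPC organoids and was above background on no iHep array, a difference of at least 5934-fold. Mmp7, the protease that cuts pro-defensins into their active form, read 3.62, 3.56 and 4.96 against -5.03, -5.68 and -6.10, and 2 iHep arrays were above background. For lysozyme, Lyz1 read 7.31, 6.66 and 7.08 against -3.88, -2.27 and -6.02 (difference 11.07, SE 0.93, limma adjusted p = 0.00065). Its close copy Lyz2, which macrophages also express, was higher by 8.46 (SE 0.94), and probes for the pair may read each other. The groups did not overlap for any of these genes. Among Reg lectins and other antimicrobial genes, 8 of 11 were higher and none lower, with a median of 5.12. All 11 were above background on every organoid array, but 4 on every iHep array and 3 on none. Reg4 was at least 866.5-fold higher, and Reg3b, an antibacterial lectin, read 6.50, 6.92 and 6.64 against -3.62, 1.34 and 1.35 (difference 6.995, SE 1.40). Reg3b was thus well above background in iHep cells too, with array iHep 1 far below the other two.

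Enteroendocrine genes followed. These cells are scarce in the gut and store peptide hormones in granules. Of 12 gut hormone genes 7 were higher and 1 lower, of 19 granule and serotonin genes 15 were higher and 1 lower, and of 13 enteroendocrine transcription factors 11 were higher and none lower. All were above background on every iFIPC array, but only 8, 7 and 2 of them on every iHep array. Most granule genes and factors thus passed the filter through the organoids alone, and a call as lower was hardly possible for them. Chgb, a structural protein of the granule, read 6.83, 6.49 and 6.62 in iFIPC organoids and was above background on no iHep array, at least 6637-fold lower there. The sister granin Chga read 3.22, 3.06 and 2.77 against -6.07, -4.90 and -6.74, with 1 iHep array above background. Both granins were uniform across the 3 organoid arrays.

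The hormones named here were all higher, by different amounts. Cck, which drives gallbladder contraction, read 3.50, 3.73 and 3.35 against -5.68, -5.84 and -5.64 (difference 9.25, SE 0.15, limma adjusted p = 7.8e-06). Gip, an incretin of the upper gut, was at least 65.5-fold higher, with array iFIPC 1 at 1.46 above the others at -0.69 and -0.83. Gcg and Pyy, hormones of the lower gut, were higher by 6.01 (SE 0.78) and 5.79 (SE 0.20), and for Gcg 1 iHep array was above background. Secretin (Sct) differed less, by 2.65 (SE 0.18), with iHep levels of -0.07, 0.14 and 0.12 clearly above background. The serotonin enzymes Tph1 and Ddc were at least 42.3-fold and at least 429.8-fold higher. Of the regulators, Neurog3, which starts the enteroendocrine fate, was higher by 3.87 (SE 0.20) and Pax4 at least 24.0-fold higher. These regulators were dim, and with normexp background correction only 4 of the 13 factors were called, all higher.

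Absorptive enterocyte genes were higher as a class. Among brush border enzymes 10 of 16 were higher and 1 lower (median 5.55), and among nutrient and ion transporters 22 of 27 were higher and none lower (median 5.18). All of them were above background on every organoid array, but only 6 of the 16 enzymes and 15 of the 27 transporters on every iHep array. The disaccharidase Sis read 4.87, 7.30 and 6.63 in iFIPC organoids and was above background on no iHep array, at least 5111-fold lower there. Mgam, the partner maltase, read 4.65, 5.67 and 5.68 against -6.22, -5.71 and -5.61, with 2 iHep arrays above background. Anpep, aminopeptidase N, was higher by 5.37 (SE 0.33), and the sodium-glucose carrier Slc5a1 at least 310.1-fold higher. Array iFIPC 1 was the lowest of the 3 for Sis, Mgam and Slc5a1, which read 1.17, 3.33 and 2.18. The fructose carrier Slc2a5 had the same order at the bottom, with 0.21, 2.93 and 0.97.

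Intestinal alkaline phosphatase Alpi and the trehalose-splitting enzyme Treh rose together. Alpi read -0.11, 1.60 and 1.94 against -7.11, -3.83 and -8.32, and Treh read -1.06, 1.74 and 1.01 against -7.92, -4.70 and -8.29. In both genes array iHep 2 was the only iHep array above background. Their promoters are shown because they alone among 13 brush border promoters hold the letters CAAAGTCCA (15.4%, against 0.384% of all promoters), a form of the site bound by Hnf4a. Capitals mark the match in Alpi (chr1:87101607-87101856, minus strand) and, on the other strand, in Treh (chr9:44672983-44673232, plus strand):
Alpi: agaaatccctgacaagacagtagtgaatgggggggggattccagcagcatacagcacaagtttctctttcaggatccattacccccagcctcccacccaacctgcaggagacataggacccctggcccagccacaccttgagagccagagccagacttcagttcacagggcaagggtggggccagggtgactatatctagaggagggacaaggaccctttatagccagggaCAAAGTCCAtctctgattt
Treh: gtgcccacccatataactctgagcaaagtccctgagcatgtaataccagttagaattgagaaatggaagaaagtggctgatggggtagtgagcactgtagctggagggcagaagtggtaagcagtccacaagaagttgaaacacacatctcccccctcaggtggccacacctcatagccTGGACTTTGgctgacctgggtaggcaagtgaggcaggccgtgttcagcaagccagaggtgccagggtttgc
The match begins 19 bases before the start site in Alpi and 71 bases before it in Treh. CAAAGGTCA, the other Hnf4a form searched, was found in 0 of the 13 promoters. Alpi and Treh also hold GAAANNGAA, searched as an interferon motif and found in 3 of the 13 (23.1%, against 7.13% of all promoters). No binding was tested.

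**Figure D3:**
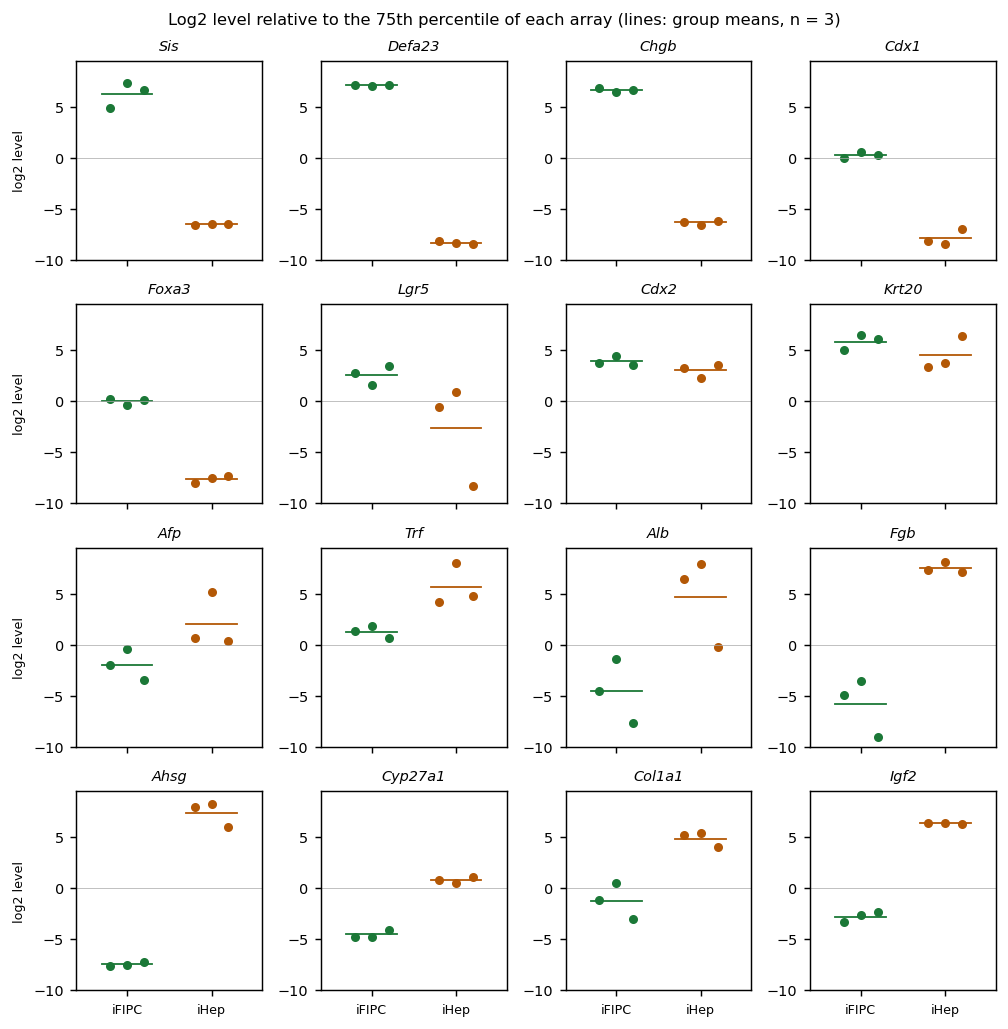
Level of 16 genes on each of the 3 iFIPC arrays and the 3 iHep arrays, as log2 relative to the array's 75th percentile. Each point is an array and each bar the group mean. Sis, Defa23, Chgb and Cdx1 are high on the organoid arrays only, Cdx2 and Krt20 overlap between the groups, and Ahsg, Fgb and Igf2 are high on the iHep arrays.

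Suckling-stage genes were mixed. Lactase (Lct), the milk-sugar enzyme of the suckling gut, read -3.81, 0.58 and -2.42 against -5.43, -4.56 and -4.94 without overlap between the groups, and it was not called (difference 3.09, limma adjusted p = 0.062). Without array iFIPC 1 or without array iFIPC 2 it was called, at 4.06 and 1.86, as it was under 7 other settings, 4 of them other scalings or value sources (3.36 to 4.05). Among genes of the suckling-stage enterocyte 5 of 14 were higher and 3 lower, and 3 were higher without array iFIPC 3. The higher ones include Slc10a2, the sodium-dependent bile acid carrier of the ileum. The signalling peptides of the surface epithelium differed strongly, with guanylin (Guca2a) higher by 10.21 (SE 0.39) and uroguanylin (Guca2b) at least 1116-fold higher. Fabp2, the intestinal fatty acid binding protein, read 4.14, 5.47 and 4.28 against -2.51, -1.63 and -2.90. Its relative Fabp1, shared by liver and gut, spread too widely to be called, from -2.71 to 4.22 in the organoids and from -8.05 to -0.36 in iHep cells.

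Several genes thought of as intestinal were high in iHep cells as well. The actin bundler of microvilli, Vil1, read 6.42, 6.72 and 6.65 against 3.84, 4.85 and 6.27 and was not called (limma adjusted p = 0.071). Keratin 20 (Krt20) read 5.02, 6.49 and 6.07 against 3.33, 3.75 and 6.45. In both, array iHep 3 was close to the organoids, and without it Vil1 was called at 2.25 and Krt20 at 2.32. In MEFs Vil1 lay between -8.77 and -8.03. Trefoil factor Tff3, a goblet cell peptide, read 6.25, 6.57 and 6.02 in organoids and 7.792, 6.848 and 9.003 in iHep cells, and it was not called (difference -1.60, SE 0.55, limma adjusted p = 0.055). Tff3 was called without array iHep 2 (-2.12) and under 6 other settings, among them quantile normalization (-1.79) and the fit over all groups. Its MEF levels lay between -8.59 and -7.82. These 3 genes were thus bright in every iHep array and near the floor in the fibroblasts for Vil1 and Tff3.

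The goblet list was split accordingly. Of 20 genes 10 were higher, 4 lower and 6 not called, with a median of 2.30. Muc2, the gel-forming mucin of the intestine, read 1.02, 1.06 and 1.48 and was above background on no iHep array, at least 151-fold lower there. Agr2, needed for mucin folding, read 5.58, 5.23 and 5.12 against -2.12, -6.18 and -2.83, with 2 iHep arrays above background. On the other side stood the chloride channel regulator Clca3a1, lower by -5.39 (SE 0.77), and the trypsin inhibitor Spink1, which read 0.99, 3.58 and 1.72 against 8.30, 8.10 and 8.21 (difference -6.11, SE 0.66). The 3 iHep arrays were nearly equal for Spink1, and MEF levels lay between -7.21 and -6.04. Tuft cell genes were dim in both groups. Of 15 tested 9 were higher and 1 lower, and with normexp background correction 5 were higher. The taste channel Trpm5 was at least 10.5-fold higher. The lower gene was the tuft marker Dclk1, at -2.58, -2.88 and -2.72 in the organoids against -1.73, -1.57 and -1.87 in iHep cells. Pou2f3, another tuft marker, was above background on no array of either group and was not tested.

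Stem cell and Wnt target genes were higher in the organoids in 20 of 31 cases and lower in none, with a median of 2.49. Rnf43, a membrane ligase that damps Wnt signalling, read 4.77, 4.78 and 4.93 against -2.03, -2.09 and -4.25 (difference 7.62, SE 0.62, limma adjusted p = 0.0006). Axin2 was higher by 6.16 (SE 1.01), Smoc2 by 6.11 (SE 0.16) and Ascl2, a master regulator of the crypt stem cell, by 4.49 (SE 0.33). Olfm4, a secreted stem cell marker, read 2.49, 2.90 and 1.92 against -2.42, -4.62 and -4.43. The organoid arrays were close together for each of these genes. Lgr5, the receptor that defines crypt stem cells, read 2.77, 1.63 and 3.50 against -0.58, 0.95 and -8.28 and was not called. Array iHep 3 was below background, and without it Lgr5 was called at 2.45. The Paneth-cell Wnt ligand Wnt3 was at least 63.0-fold higher in the organoids.

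Signalling pathways outside the Wnt targets moved in both directions. Among Notch genes 11 of 19 were higher and 2 lower (median 1.46), with the ligand Dll1 higher by 4.85 (SE 0.47) and the effector Hes1 just under the size threshold at 0.98 (SE 0.16). Hes1 was called without array iFIPC 3 (1.09) and without array iHep 3 (1.04). BMP and TGF-beta genes went the other way, with 3 of 32 higher and 17 lower (median -1.88), of which 11 remained lower without array iHep 1. Wnt ligands and receptors counted 3 of 29 higher and 11 lower, a majority that turned to 8 higher and 7 lower under spike-in scaling. YAP and TEAD targets, a readout of tissue tension, counted 1 of 23 higher and 9 lower. The matricellular proteins Ccn1 and Ccn2 were lower by -5.04 (SE 0.27) and -2.85 (SE 0.43) on the log2 scale. Cell cycle genes were higher in 15 of 41 cases and lower in 2, and 9 were higher without array iFIPC 1. Mki67, a marker of dividing cells, read 4.95, 4.19 and 4.18 against 2.44, 3.19 and 3.11.

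Transcription factors shared by liver and gut were measured in both groups. Of 18 endodermal factors 8 were higher in iFIPC organoids and 1 lower, with 5 higher when array iFIPC 2 was left out. Hnf4a, a nuclear receptor that both organs need, read 2.48, 3.36 and 3.08 in the organoids and -0.55, -2.58 and 1.56 in iHep cells (difference 3.49, SE 1.03, limma adjusted p = 0.035). Its call was lost without any organoid array or without iHep 1, at values of 3.30 to 3.74 and an adjusted p of 0.0708 to 0.0988. MEF levels of Hnf4a lay between -8.96 and -7.82, below every iHep array.

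The Foxa genes encode factors that open closed chromatin for the others. Foxa3 read 0.20, -0.39 and 0.16 in iFIPC organoids and was above background on no iHep array, at least 65.8-fold lower there. Foxa2 read 1.95, 2.19 and 1.96 against -0.94, -7.66 and -8.29, so that only array iHep 1 was above background. Its call (difference 7.66, SE 1.98) was lost without any of the other 5 arrays, at values of 6.33 to 7.70, and without iHep 1 the difference was 10.004. Foxa1 had the same outlying array, with iHep levels of -3.06, -8.13 and -8.15 against -2.25, -4.18 and -3.50. It was not called, and without iHep 1 it was, at 4.83. Foxa1 and Foxa2 were thus both above background on iHep 1 alone. The labels do not say which genes, if any, were introduced to make either kind of cell.

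Intestinal transcription factors were higher in 14 of 28 cases and lower in 1. The caudal homeobox genes Cdx1 and Cdx2 set intestinal identity, and they differed from each other. Cdx1 read -0.01, 0.52 and 0.30 and was above background on no iHep array, at least 79.95-fold lower there. Cdx2 overlapped between the groups, with 3.77, 4.41 and 3.58 in the organoids and 3.24, 2.31 and 3.59 in iHep cells (difference 0.87, SE 0.40, limma adjusted p = 0.11). It was below background in all MEF arrays, between -9.08 and -8.05. Atoh1, the secretory lineage switch, was at least 10.9-fold higher in the organoids and Nr5a2, a nuclear receptor of endoderm, at least 29.2-fold. Isx, a gut repressor of vitamin A uptake, read 2.17, 3.47 and 3.55 against -5.25, -3.10 and -4.96. Its level in the other organoids was lower, between -3.78 and -1.11 in FI organoids, -6.92 and -4.35 in iISC organoids and -8.85 and -8.41 in crypt organoids.

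Hepatocyte secretory genes were lower more often than higher in the organoids. Of 11 acute-phase genes tested 8 were lower in iFIPC organoids and none higher (median -6.00). Among complement genes 11 of 18 were lower and 3 higher, among plasma carriers and inhibitors 9 of 22 lower and 1 higher, and among coagulation genes 8 of 16 lower and 1 higher, with 5 lower without array iHep 1. Ahsg, the plasma protein fetuin-A, read 8.02, 8.31 and 5.97 in iHep cells and was above background on no organoid array, at least 16350-fold lower there (limma adjusted p = 9.9e-05). The fibrinogen chain Fgb read 7.38, 8.12 and 7.12 against -4.88, -3.59 and -9.03, with 2 organoid arrays above background. Haptoglobin (Hp), which binds free haemoglobin, read 7.55, 7.86 and 5.58 against -3.89, -3.26 and -7.79, again with 2 organoid arrays above background.

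Albumin, the main plasma protein, was the least uniform. Alb read 6.46, 7.92 and -0.20 in iHep cells 1 to 3 and -4.50, -1.35 and -7.66 in iFIPC organoids 1 to 3. The difference of -9.22 (SE 2.60, limma adjusted p = 0.03) lost its call without iFIPC 1 (-9.23), iFIPC 3 (-7.65), iHep 1 (-8.36) or iHep 2 (-7.63). Array iHep 3 was far below the other iHep arrays, and array iFIPC 2 was the highest of the organoids. Afp, the fetal counterpart of albumin, read 0.70, 5.18 and 0.34 against -1.99, -0.36 and -3.42 and was not called (limma adjusted p = 0.071). The serpins Serpina3n and Serpina3g, inhibitors of proteases, were lower by -10.13 (SE 0.29) and -10.97 (SE 0.53). MEFs had Serpina3g at 3.33 to 3.77, close to the iHep levels of 4.26 to 4.54, whereas Ahsg in MEFs was between -9.03 and -7.88. Serpina3 genes are near copies and may share signal.

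Some plasma genes ran against the block, namely 3 of 18 complement, 1 of 22 carrier and inhibitor and 1 of 16 coagulation genes. These shares were about or below the 16.1% of all genes called higher. Cfi and C4bp are named by the rule for genes that went against their list. Cfi, the complement inhibitor factor I, read 4.84, 3.18 and 2.22 in iFIPC organoids against -3.94, -4.63 and -1.78 (difference 6.87, SE 0.97). C4bp, another complement inhibitor, was higher by 4.38 (SE 0.60), whereas C3, the central complement protein, was lower by -5.91 (SE 0.64). Apolipoproteins and lipoprotein genes counted 4 of 19 higher and 9 lower. Apoa1, the protein of high-density lipoprotein, read 7.34, 7.25 and 5.67 in iHep cells against -0.48, 3.04 and 2.12. Apoe was lower by -5.03 (SE 1.21), and its call was lost without iFIPC 2 (-4.28) and without iFIPC 3 (-5.03). By contrast Apoa4, an intestinal apolipoprotein, was higher by 6.83 (SE 1.55) and Mttp, which loads lipid onto chylomicrons, by 5.57 (SE 0.78). The Apoa4 levels of -2.56, 2.42 and 2.38 placed array iFIPC 1 well below the other organoids, and 2 iHep arrays were above background.

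**Figure D4:**
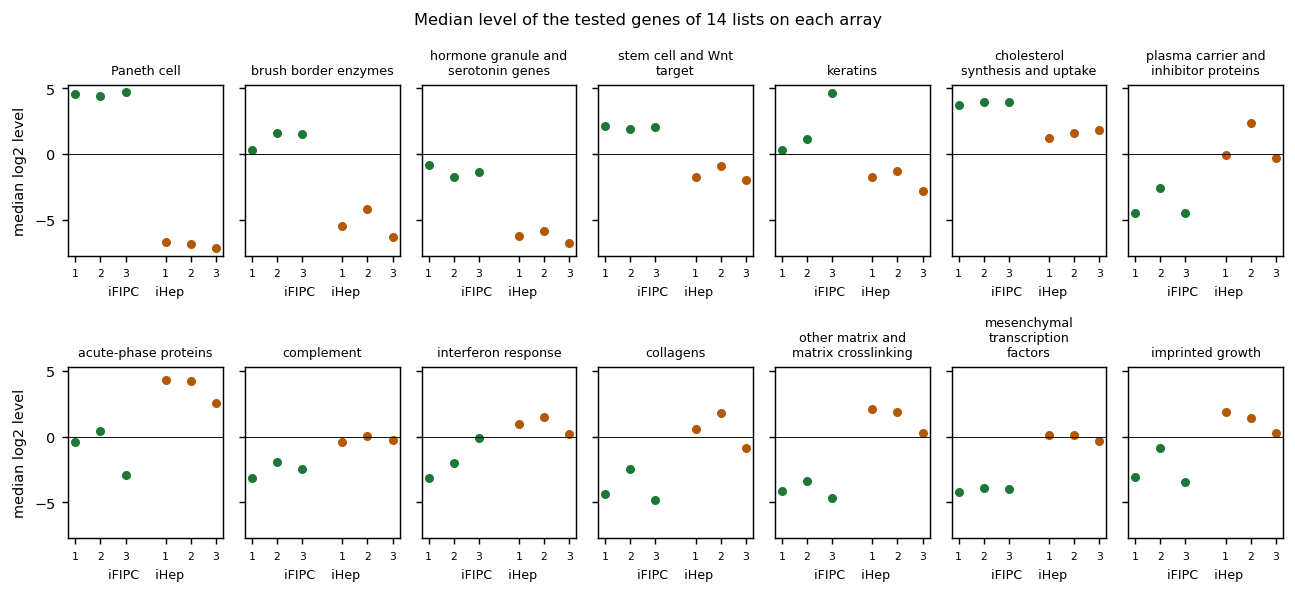
Median level of the tested genes of 14 lists on each of the 6 arrays, as log2 relative to the array's 75th percentile. Among organoids, array 2 is the highest for plasma proteins and collagens and array 3 is the highest for keratins and interferon response genes. Among iHep arrays, array 2 is the highest for plasma proteins.

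The metabolic lists did not follow the hepatocyte label. Urea cycle and arginine genes were higher in iFIPC organoids in 7 of 13 cases and lower in 1, and glucose production and glycogen genes in 8 of 13 cases with 2 lower. Otc, the urea cycle enzyme that makes citrulline and is also used by enterocytes, read 1.22, 2.02 and 1.96 against -7.92, -5.42 and -8.28, with 1 iHep array above background. Cps1, the first enzyme of the cycle, read 1.05, 3.64 and 3.42 against -7.92, -2.45 and -4.30. Fbp1, a step of glucose production, was higher by 8.99 (SE 0.93). The iHep cells led for Glul, glutamine synthetase, which was lower in the organoids by -2.39 (SE 0.26), and for Pygl, liver glycogen phosphorylase, by -3.37 (SE 0.43). In the native organoids these enzymes were also bright, with Otc at 1.85 to 2.70 in FI and 2.97 to 3.47 in crypt organoids.

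Bile acid genes went in both directions. Cyp27a1 and Cyp7b1, which act in the alternative synthesis pathway, were lower in the organoids by -5.35 (SE 0.26) and -4.58 (SE 0.79). Among 16 bile acid genes tested these 2 were the lower ones, 8 were higher and 6 were not called. The ileal uptake carrier Slc10a2 read -0.66, 0.41 and 1.17 against -7.84, -3.97 and -6.06, with 1 iHep array above background. The basolateral exporter chain Slc51a was higher by 7.53 (SE 1.14) and Slc51b at least 65.7-fold. Nr1h4, the bile acid receptor FXR, read 1.39, 1.43 and 1.38 against -1.58, -5.93 and -7.25, again with array iHep 1 alone above background. Its target Fgf15, the gut signal that restrains bile acid synthesis, was at least 10.9-fold higher but was not called with normexp background correction (1.27). With only genes above background on all 6 arrays, 1 bile acid gene was higher and 2 were lower.

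Drug-metabolism genes were higher more often than lower in the organoids. Cytochrome P450 genes counted 17 of 29 higher and 2 lower (median 2.85), with 11 higher without array iFIPC 2 and 10 without array iFIPC 3. Cyp2c55, an enzyme of the gut and liver, read 4.19, 5.41 and 5.27 against -5.81, -4.87 and -5.01 (difference 10.19, SE 0.42). Cyp3a25 was at least 88.3-fold higher, although its organoid levels of -2.10, 2.81 and 0.53 spread widely. The retinoic acid hydroxylase Cyp26b1 went the other way, by -5.46 (SE 0.88). Of 35 glutathione, glucuronide and sulfate transferases 15 were higher and 3 lower, with Ugt2b35 at least 258.7-fold higher and the sulfotransferase Sult1a1 lower by -6.29 (SE 0.30).

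Cholesterol genes were higher in 18 of 24 cases and lower in none, with a median of 2.16. Dhcr7, which carries out a late step of cholesterol synthesis, read 4.25, 4.37 and 4.35 against 0.92, 1.22 and 1.80 (difference 3.01, SE 0.24, limma adjusted p = 0.00056). Lss, which closes the sterol rings, read 2.55, 2.54 and 2.44 against -0.33, -0.22 and -0.07 (difference 2.71, SE 0.12). Neither gene overlapped between the groups. The median level of the list per array lay between 1.25 and 1.84 in iHep cells and between 3.72 and 3.99 in the organoids. MEFs had a median of 3.19 for these genes, so the iHep cells were below their starting cells as well.

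Fibroblast programmes were lower throughout. No mesenchymal transcription factor, matrix gene outside the collagens, metalloproteinase or fibroblast surface gene was called higher, whereas 22 of 31, 24 of 32, 16 of 23 and 18 of 27 were lower. The median differences were -3.62, -4.94, -4.27 and -4.20. Of the genes tested, 19, 22, 14 and 17 were above background on every organoid array, and the rest passed the filter through iHep cells alone. Under spike-in scaling 3 mesenchymal factors and 1 metalloproteinase gene were called higher. Collagens counted 15 of 21 lower and 1 higher. Ogn, a small matrix proteoglycan, read 2.73, 2.79 and 2.17 in iHep cells and was above background on no organoid array, at least 559-fold lower there. Lox, which crosslinks collagen, was at least 655-fold lower. Dcn, decorin, read 6.00, 6.20 and 4.33 against -2.24, -1.16 and -3.65, and Vim, the mesenchymal filament protein, 5.76, 5.69 and 5.54 against 1.53, 2.56 and 1.02. The iHep samples thus held RNA of both plasma proteins and matrix genes. Matrix genes outside the collagens had a median level of 0.27 to 2.10 per iHep array against 4.51 in MEFs. Whether the same cells expressed both cannot be told from bulk samples.

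Collagen I showed how the organoid arrays ranked. Col1a1 read -1.17, 0.49 and -3.05 in iFIPC organoids and 5.21, 5.45 and 4.02 in iHep cells (difference -6.13, SE 0.94, limma adjusted p = 0.0041). Col3a1 had the same order of organoid arrays, -2.39, -0.24 and -4.85, but overlapped with the iHep levels of 1.75, 3.71 and -0.43. It was not called (difference -4.17, limma adjusted p = 0.063), but it was called when array iFIPC 2 (-5.30) or array iHep 3 (-5.23) was left out and under 4 other settings. Array iFIPC 2, which was on a slide of its own among the organoid arrays compared, was the highest for both collagens, as for Alb, Hp and Dcn. Array iFIPC 3 was the lowest for these genes. Of the regulators of mesenchymal state, Twist1 was lower by -3.42 (SE 0.36), Zeb2 at least 44.2-fold lower and Snai1 lower by -7.91 (SE 0.93), with 1 organoid array above background for Snai1. In these bulk samples fewer cells of a type and less RNA per cell cannot be told apart.

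Epithelial junction genes were higher in 24 of 37 cases and lower in none, with a median of 2.21. Cldn15, a pore-forming claudin of the gut, read 3.50, 4.30 and 3.79 against -5.38, -4.53 and -5.37 (difference 8.96, SE 0.32). Cldn7 was higher by 5.52 (SE 0.68) and the adhesion molecule Epcam by 3.98 (SE 0.56). Cdh1, epithelial cadherin, was not called, with 5.26, 5.38 and 5.41 against 4.63, 4.59 and 5.21. Keratin 8 (Krt8) and keratin 19 (Krt19), filaments of simple epithelia, were also bright in both groups, with differences of 0.57 (SE 0.25) and 0.62 (SE 0.18). Integrins and laminins split, with 6 of 26 higher and 11 lower, and the majority turned to 11 higher and 8 lower under spike-in scaling. The hemidesmosome integrin Itgb4 was higher by 1.40 (SE 0.24).

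A stratified-epithelium signal stood in array iFIPC 3. Krt5, a keratin of basal cells, read 2.70, -0.37 and 7.09 in the organoids and -4.19, -4.10 and -3.99 in iHep cells. Its call (difference 7.23, SE 1.82, limma adjusted p = 0.021) was lost without iFIPC 1 (7.45), iHep 1 (7.18) or iHep 2 (7.23). Its partner Krt14 read -2.29, -2.93 and 5.81 against -4.46, -4.71 and -4.54 and was not called (difference 4.77, limma adjusted p = 0.14). Krt14 was called without array iFIPC 3, at 1.97, in the fit over all groups and with slide as a random block. That block had a negative correlation (-0.384), which lowers the error, and no slide held arrays of both groups. Col17a1, a hemidesmosome collagen and the single collagen higher in the organoids, read -0.84, -4.01 and 3.76 and was above background on no iHep array. It was at least 51.6-fold higher, a call lost without iFIPC 1 (7.40) or any iHep array (6.84 to 7.60), and with normexp background correction (3.48). The Col17a1 call was also lost with the mean over all probes of the gene (5.22), with array weights (6.59) and with the replicate number as a block. Array iFIPC 3 was the highest in all 3 genes, and Krt5 and Col17a1 were above background in the other organoid arrays too. In FI, crypt and iISC organoids Krt5 lay between -4.32 and -1.40. Keratins as a list counted 5 of 17 higher and none lower, and 2 higher without any 1 of iFIPC 1, iFIPC 2, iHep 1 or iHep 2.

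Fetal spheroid genes were not higher as a class in the fetal-type organoids than in iHep cells. Of 23 genes of the fetal intestinal spheroid 4 were higher in iFIPC organoids and 7 lower, beside 16.1% and 15.9% of all genes. Under spike-in scaling 7 were higher and 4 lower. The list median was 1.60, 1.39 and 2.18 on the iFIPC arrays and 2.20, 3.44 and 1.33 on the iHep arrays. In the other groups it was 1.57 in MEFs and 1.22 in FI, -0.18 in iISC and -2.28 in crypt organoids. The count therefore does not speak to a low level of these genes in iFIPC organoids. Spp1, osteopontin, read 1.60, 2.40 and 2.24 against 5.22, 4.83 and 4.14 (difference -2.65, SE 0.35), a call lost when all 6 groups entered the fit. Its MEF levels lay between 7.94 and 8.28. The aspartic protease Ctse was higher by 4.54 (SE 0.62), with organoid levels of 2.58, 1.30 and 0.09.

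Imprinted growth genes were among the lists with the lowest median, -5.09, with 10 of 17 lower and 1 higher. Igf2, the fetal growth factor, read -3.31, -2.65 and -2.33 in iFIPC organoids and 6.42, 6.40 and 6.27 in iHep cells (difference -9.13, SE 0.27, limma adjusted p = 3.7e-05). The neighbouring noncoding RNA H19 read -3.04, -0.65 and -3.47 against 6.24, 6.33 and 5.25. MEF levels were 7.77 to 7.99 for Igf2 and 5.87 to 6.48 for H19, so iHep cells stood close to the fibroblasts and the organoids far below. Dlk1 and Meg3, of the Dlk1-Dio3 region, were lower by -6.15 (SE 0.91) and -7.65 (SE 0.64), with 1 organoid array above background for Meg3. Dio3, which inactivates thyroid hormone, read 3.38, 2.25 and 3.41 in iHep cells and was above background on no organoid array. Igf2 in FI organoids lay between -1.66 and -0.29.

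Interferon response genes were lower in iFIPC organoids in 24 of 39 cases and higher in none, with a median of -2.50. Under spike-in scaling 13 were lower and 1 higher. These genes are switched on by interferon through STAT proteins and encode antiviral enzymes and GTPases. Iigp1, an interferon-induced GTPase, read 0.97, 2.75 and -0.01 in iHep cells and was above background on no organoid array, at least 223-fold lower there. Its relative Tgtp1 read 2.75, 3.87 and 1.42 against -6.84, -6.51 and -5.82, with 1 organoid array above background. Oas2, a sensor of double-stranded RNA, read 3.56, 3.30 and 3.30 against -7.16, -4.33 and -4.48. In MEFs Oas2 lay between -6.56 and -5.08 and Tgtp1 between -1.93 and -1.36, below every iHep array. The immunoproteasome subunit Psmb8 was lower by -4.37 (SE 0.18).

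Promoter letters of this list are shown because 24 of its members fell. The letters GAAANNGAA, from the core of the interferon-stimulated response element, were found in 14 of 28 interferon-list promoters with a sequence (50%), against 7.13% of all 32851 promoters. Ribosomal protein promoters also exceeded that share, with 7 of 26 (26.9%). Of the 14 matching genes, 9 were lower in the organoids (Bst2, Gbp2, Gbp3, Igtp, Isg15, Oas1a, Oas3, Tgtp1 and Trim30a) and 5 were not called (Ifit1, Ifit3, Rsad2 and Stat2 among them). Capitals mark the matches in Isg15 (chr4:156200819-156201068, minus strand), Tgtp1 (chr11:48992247-48992496, minus strand), Trim30a (chr7:104465194-104465443, minus strand) and Gbp2 (chr3:142620413-142620662, plus strand):
Isg15: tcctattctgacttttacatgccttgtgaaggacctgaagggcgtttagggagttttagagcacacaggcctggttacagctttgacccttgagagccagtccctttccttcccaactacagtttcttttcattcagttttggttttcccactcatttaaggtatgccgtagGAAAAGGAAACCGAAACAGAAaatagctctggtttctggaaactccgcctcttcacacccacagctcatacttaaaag
Tgtp1: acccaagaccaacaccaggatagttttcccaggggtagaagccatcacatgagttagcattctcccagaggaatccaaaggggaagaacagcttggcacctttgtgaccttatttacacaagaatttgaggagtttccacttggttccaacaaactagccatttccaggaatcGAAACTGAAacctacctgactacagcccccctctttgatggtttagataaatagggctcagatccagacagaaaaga
Trim30a: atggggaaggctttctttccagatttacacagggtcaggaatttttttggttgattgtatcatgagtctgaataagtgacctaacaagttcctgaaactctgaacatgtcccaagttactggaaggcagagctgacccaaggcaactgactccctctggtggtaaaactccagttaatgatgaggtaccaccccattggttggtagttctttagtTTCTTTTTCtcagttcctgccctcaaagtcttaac
Gbp2: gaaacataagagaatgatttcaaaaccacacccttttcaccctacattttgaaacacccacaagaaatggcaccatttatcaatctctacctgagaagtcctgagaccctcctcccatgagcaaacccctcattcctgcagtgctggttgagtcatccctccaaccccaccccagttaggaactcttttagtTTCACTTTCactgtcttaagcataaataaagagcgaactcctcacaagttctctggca
Isg15 holds 3 overlapping matches that begin 66 to 78 bases before the start site, and each of the others holds 1.

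The 4 genes differed in how far they fell. Tgtp1 and Trim30a were lower by -9.07 (SE 0.65) and -6.57 (SE 0.93), each with 1 organoid array above background, and Gbp2 by -4.29 (SE 0.42). Isg15, a ubiquitin-like modifier, read -3.24, -1.60 and 1.03 against 2.56, 2.99 and 1.25 (difference -3.54, SE 1.14, limma adjusted p = 0.045). Array iFIPC 3 nearly reached the lowest iHep array. When single arrays were left out, the Isg15 call held without that array (-4.69) and was lost without any 1 of the other 5, at -2.55 to -4.04. It was also lost under spike-in scaling, at -2.58, with no filter on dim probes and with the replicate number as a block. Ifit1 read -4.745, -2.003 and -0.093 against 1.45, 2.86 and -0.18 and was not called (difference -3.66, limma adjusted p = 0.068). It was called without array iFIPC 3, at -4.75, and under 4 other settings. The list median was lowest on array iFIPC 1 (-3.18) and highest on array iFIPC 3 (-0.09).

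Immune signals beyond interferon were mixed. Class I antigen presentation counted 1 of 23 higher and 8 lower, which turned to 5 higher and 2 lower under spike-in scaling. Chemokines and cytokines counted 10 of 26 higher and 7 lower, and with normexp background correction 5 higher and 9 lower. Ccl25, the small-intestinal chemokine that attracts lymphocytes, read 4.17, 6.17 and 5.77 against -0.43, -0.32 and 0.25 (difference 5.54, SE 0.55). Ccl2, a monocyte attractant of stromal cells, was lower by -5.85 (SE 0.49), and Il6 at least 28.0-fold lower.

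Posterior HoxA genes were higher in iFIPC organoids than in iHep cells. The Hox genes record place along the body axis, and posterior HoxA members are typical of trunk and limb mesenchyme. In the HoxA cluster 4 of 11 genes were higher in iFIPC organoids and 1 lower. Hoxa10 read 2.57, 2.14 and 2.48 against 0.10, 0.67 and -0.19 (difference 2.20, SE 0.26, limma adjusted p = 0.0018). Hoxa11 was higher by 1.68 (SE 0.30) and Hoxa9 by 1.94 (SE 0.36). MEF levels of Hoxa10 lay between 0.18 and 0.53, and those of FI and crypt organoids between -8.78 and -4.64. The iISC organoids, at 1.65 to 1.90, stood near the iFIPC organoids. Tbx15, a T-box gene of trunk and limb mesenchyme, overlapped between the groups with 1.825, 1.008 and 1.505 against 1.48, 1.45 and 0.45, and lay between -9.08 and -7.68 in FI and crypt organoids.

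Other Hox clusters went the other way or were not called. HoxC and HoxD genes counted 5 of 10 lower and none higher, with 3 lower without iFIPC 1 or without iHep 1 and 2 without iHep 2. None of the 8 HoxB genes was called, although 6 were lower without array iFIPC 2. In the organoid arrays the HoxB median was -3.15, -2.25 and -7.12, so array iFIPC 2 was again the highest and iFIPC 3 the lowest.

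**Figure D5:**
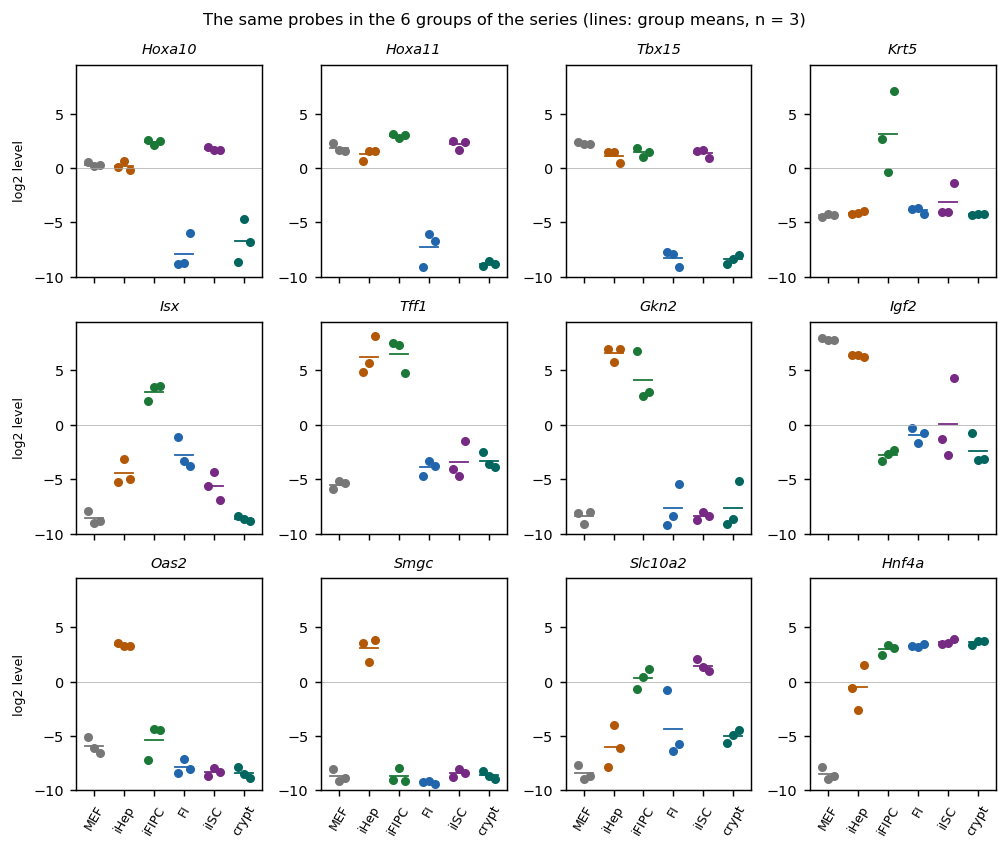
Level of 12 genes on every array of the 6 groups of the study, as log2 relative to the array's 75th percentile, each point an array. Hoxa10, Hoxa11 and Tbx15 are high in MEFs, iHep cells and both induced organoids and near the floor in FI and crypt organoids, and Tff1 and Gkn2 are high in iHep cells and iFIPC organoids alone.

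Some stomach genes were high in both groups. The gastric trefoil factor Tff1 read 7.50, 7.38 and 4.77 in iFIPC organoids and 4.88, 5.64 and 8.17 in iHep cells, with no call and a difference of 0.32 (SE 1.12). Gkn2, a secreted partner of Tff1, read 6.76, 2.62 and 3.04 against 6.996, 5.775 and 7.007, and was not called (difference -2.46, limma adjusted p = 0.13). Gkn2 was called without array iFIPC 1, at -3.77, with array weights and with slide as a random block. Both genes were low in all other groups. Tff1 lay between -5.94 and -1.44 and Gkn2 between -9.19 and -5.15 over the 12 arrays of MEFs, FI, crypt and iISC organoids. The related Gkn3 separated the groups, with 5.19, 2.11 and 2.36 against -3.71, -3.61 and -2.29 (difference 6.42, SE 0.92). Over the list, 6 of 17 stomach genes were higher and 2 lower. Leaving out array iFIPC 1 gave 4 lower, and leaving out array iHep 1 gave 1 lower.

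The largest falls outside these lists were genes of the iHep cells alone. Smgc, a secretory gene of the submandibular gland, read 3.59, 1.81 and 3.83 and was at least 796-fold lower in the organoids. Amy2a5, pancreatic amylase, read 2.71, 2.29 and 0.49 and was at least 336-fold lower, although amylase genes are near copies and may share signal. Fam107a read 2.71, 2.31 and 1.82 against -8.73, -5.73 and -8.46, with 1 organoid array above background. None of these 3 exceeded -5.73 on any array of the other 5 groups. The lactate dehydrogenase chain Ldhb was lower by -4.85 (SE 0.50), whereas the carbonic anhydrase Car9 was higher by 6.50 (SE 0.39). Among the largest rises outside the lists were Jaml, a junctional adhesion molecule, at 3.01, 3.96 and 4.43 against -7.91, -5.67 and -7.08, and Tm4sf5, a tetraspan membrane protein, at least 1391-fold higher.

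Housekeeping lists differed little in size. Ribosomal protein genes had a median difference of 0.37 with 3 of 37 called, all higher, and respiratory chain genes a median of 0.70 with 2 of 38 called, both higher. Unfolded protein and heat shock genes had a median of -0.09 with 1 higher and 1 lower of 26. Under spike-in scaling 34 ribosomal and all 38 respiratory chain genes were called higher, and without array iHep 3 the respiratory chain count was 10. Glycolysis and hypoxia genes counted 4 of 24 higher and 1 lower, a count that ran from 2 to 8 as single arrays were left out.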

How the data were processed

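The arrays measure RNA with 60-base probes and Cy3 dye, from total RNA isolated with TRIzol, per the labels' protocols. The authors deposited each array's spot intensity as written by Agilent Feature Extraction (9.5.1.1 per the submitters' processing notes), a signal already background-subtracted and detrended within the array but not scaled between arrays, together with flags for background, saturation and outlier spots. They also deposited a value table whose intensity columns share the same distribution over all 18 arrays, that is quantile normalized, which was used as an alternative. The file headers name an older software version and mouse build for MEF and iHep arrays than for the organoid arrays.

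Control spots were dropped, as were 62 to 107 spots an array that carried an outlier flag. Log2 of the processed signal was centred on each array's 75th percentile. Probes were named through accession (24844), symbol (6045) or synonym (1810) against the RefSeq gene table, 8475 of 41174 stayed unnamed, and 19713 genes resulted, each read by its brightest probe. In 33 called genes another probe differed in the opposite direction. limma 3.58.1 in R 4.3.3 (lmFit and eBayes, Benjamini-Hochberg over 14383 genes) compared the 3 iFIPC with the 3 iHep arrays. Precision is limited by having 3 arrays a group, since an exact permutation test of 3 against 3 cannot go below p = 0.1. In simulated data 200 of 14383 genes were changed, and the noise was normal with the same SD in both groups. There the fit recovered 46.3%, 74.6% and 90.9% of genes changed by 1.5, 3 and 5 log2 units, with 10 false calls. The share called in the real data was 32%, far above the share changed in the simulation, so these rates do not carry over.

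The samples and the gene lists were chosen with earlier results of these data known. Named genes are a fixed set of anchors, up to 4 called non-overlapping genes a list with the largest change, up to 2 that went against their list, and the 10 genes that rose or fell most. Other names were chosen after their values were seen: Anpep, Apoe, Asgr1, Atoh1, Bst2, C3, Ccn2, Cdh5, Defa22, Dlk1, Fabp1, Fgf15, Gbp2, Gbp3, Guca2b, Hes1, Hoxa11, Ifit1, Ifit3, Igtp, Il6, Isg15, Itgb4, Kdr, Krt14, Krt19, Krt8, Lss, Mmp7, Nr5a2, Oas1a, Oas3, Pou2f3, Reg3b, Rsad2, Sct, Slc51b, Smoc2, Stat2, Tbx15, Tek, Tff3, Treh, Vim and Zeb2. A gene in 2 lists counts in both. Some genes that meet the rule are not reported here, among them uncalled anchors with differences near 0, some of which change sign with the scaling.

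Promoters were searched on both strands for GAAANNGAA (interferon response), CAAAGTCCA or CAAAGGTCA (Hnf4a and related receptors), TTTATTG (Cdx factors), CCATAAA (Cdx factors), TTGCGCAA (C/EBP factors), TCACCCCAC (Klf factors), CAGGTG (E-box), CTTTGAAG or ATCAAAG (TCF) and AGATAA (factors of the Gata family), chosen with the results known. The table holds 32851 starts of 27025 genes, and the first start listed was used for each listed gene. Alternatives were another background correction, 4 other scalings or value sources, other probe filters and probe rules, slide or replicate number as a block, array weights, a higher size threshold, all groups in the fit and each array left out.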

Additional observations from a re-analysis of the deposited data

How the results depend on the processing

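The direction split and the number of calls depended on the scaling and the size threshold. Spike-in scaling gave 8181 called genes, 6953 higher and 1228 lower, and a log2 threshold of 2 gave 2579, with 1275 higher and 1304 lower. The spike-in probes differed by -0.48 between the groups before any scaling and by -0.97 after scaling to the 75th percentile. All other alternatives stayed within 1.5 times of the main counts: between 3308 (genes above background on all 6 arrays) and 5134 called (slide as a random block). The slide block had a correlation of -0.384, which lowers the error of the difference where arrays of a group share a slide. All iHep arrays shared 1 slide and no slide held arrays of both groups, so calls added by this block were not taken as firmer. Leaving out single arrays gave 4027 to 4979 called, 1952 to 2514 higher and 2052 to 2465 lower genes, and 3854 to 4255 of the 4603 calls were kept. Replicate numbers did not pair the samples: the deviations of same-numbered arrays correlated at 0.008, 0.045 and -0.062, and with the replicate number as a block 4319 genes were called, 2161 higher and 2158 lower. Among named genes that block ended 5 calls (Apoe, Col17a1, Hnf4a, Isg15 and Tat) and added 3. Genes near 0 changed sign. Tbx15 moved to -0.069 with array weights and ran from -0.019 to 0.54 as single arrays were left out. Ttr moved from 0.92 to -0.124 with array weights and ran from -0.058 to 1.43 as single arrays were left out. Tek moved from 0.52 to -0.318 with normexp correction. Tff1 ran from -0.36 to 1.29, and Asgr1 moved from -0.28 to 0.014 with median scaling and to 0.68 with spike-in scaling. The cause of these changes was not tested. Counts of 1 or 2 in a list's minority direction often changed by 1 when an array was left out. Where a probe was well above background in 1 group only, its fold is a lower limit set by the array's background, and normexp correction shrank the differences of such dim genes.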
